A study of Mus musculus with 6 samples.

Results

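The imprinted Dlk1-Dio3 domain of mouse chromosome 12 contributed 7 of the listed miRNAs, beside 444 others. The list covers small EVs and T cell blasts from the same kind of culture. Together these 7 were more abundant in the small EVs. The miRNAs were chosen by name from 30 precursors of the domain, and mmu-miR-127-3p, mmu-miR-411-5p and mmu-miR-410-3p headed that choice because earlier results on these libraries had shown them high in small EVs. Their values in small EVs and blasts are therefore a description: no p is given for a member, and fitted differences and counts of calls support nothing. Of the 30 precursors, 6 had a row and 24 had none, and 0 of 27 further precursors of the same domain had one. Small RNA was sequenced from 3 libraries of small EVs and 3 libraries of T cell blasts, numbered 1, 2 and 5 in both groups. Both groups share one kind of culture, started from C57BL/6 wild-type mice, 8 to 12 weeks of age. Spleen cells freed of erythrocytes were activated with 2 μg/ml of the lectin concanavalin A, washed after 36 h, and then grown with 50 U/ml of mouse recombinant IL-2 in serum depleted of exosomes. On day 6 the blasts were pelleted, and small EVs were collected from the supernatant after spins at 2000 g and 10000 g by a last spin at 100000 g. No cell type was sorted in this protocol, although the legend of the study's data table calls the cells CD4+ T cells.

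Imprinted genes are read from only one of the parental chromosomes. In this domain the chromosome inherited from the father expresses protein-coding genes such as Dlk1 and Rtl1, whereas the maternal one expresses a long series of noncoding RNAs (Meg3, the antisense transcript of Rtl1, Rian and Mirg) from which one of the largest miRNA groups of placental mammals is cut. These miRNAs are known for high levels in the embryo, the placenta and the brain. In mouse, miR-127 is perfectly complementary to the Rtl1 message that lies opposite to it and directs its cleavage.

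The mature sequences are printed because the listed values rest on reads aligned to them, with the seed (bases 2 to 8, which guide target pairing) in capitals. All 7 were found in RefSeq on GRCm38.p6, and all lie on the plus strand.
mmu-miR-127-3p: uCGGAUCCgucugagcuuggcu
mmu-miR-411-5p: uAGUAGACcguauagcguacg
mmu-miR-369-3p: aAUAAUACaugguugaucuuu
mmu-miR-409-3p: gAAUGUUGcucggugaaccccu
mmu-miR-410-3p: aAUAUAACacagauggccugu
mmu-miR-409-5p: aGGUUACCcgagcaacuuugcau
mmu-miR-541-5p: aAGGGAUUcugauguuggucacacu
The 7 miRNAs had 7 different seeds, and none of these seeds was shared with another of the 370 listed miRNAs for which a sequence was at hand. Their GC content ran from 23.8% in mmu-miR-369-3p to 59.1% in mmu-miR-127-3p, with a median of 47.6%, against 49.0% for the 370. At least 4 edits separated each of them from any other mature mouse miRNA in the RefSeq table, the closest pair being mmu-miR-369-3p and mmu-miR-154-3p, of which miR-154 was not listed. A pair of motifs linked to export of miRNAs in EVs were searched on the mature strand. GGAG, a motif bound by the RNA-binding protein hnRNPA2B1, was in 0 of the 7 and in 7.84% of the 370. CCCU was in 1 of the 7, at the end of mmu-miR-409-3p, and in 13.2% of the 370.

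The members came from 3 places in the domain. Mature mmu-miR-127-3p lies at chr12:109592888-109592909, and its precursor lies opposite to coding sequence of Rtl1, a retrotransposon-derived gene on the minus strand. Mature mmu-miR-411-5p lies 117 kb farther on, at chr12:109710190-109710210, outside any other annotated gene and 19508 bp before the annotated start of Mirg. The other 5 came from 4 precursors packed into 1387 bp inside Mirg, at chr12:109742422-109742446 for mmu-miR-541-5p, chr12:109743172-109743194 and chr12:109743204-109743225 for mmu-miR-409-5p and mmu-miR-409-3p, chr12:109743466-109743486 for mmu-miR-369-3p and chr12:109743764-109743784 for mmu-miR-410-3p. In GENCODE, the Mir369 and Mir410 precursors overlap an exon of Mirg, and those of Mir541 and Mir409 lie in an intron. Only Mir412, between Mir409 and Mir369, had no row among the 5 precursors of this stretch. By contrast, 0 of the 29 precursors between Mir411 and Mir541 and 0 of the 9 between Mir127 and Mir411 had one.

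**Figure D1:**
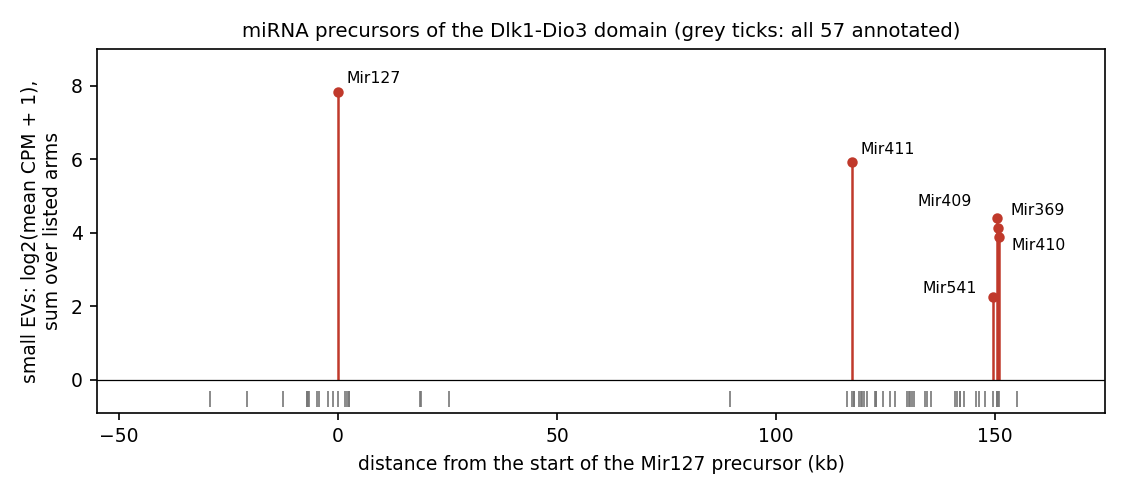
Position of the miRNA precursors of the Dlk1-Dio3 domain, as distance in kb from the start of Mir127 (x axis), and the level in small EVs of those with a listed miRNA (y axis, log2 of the mean CPM over 3 libraries + 1, summed over listed arms). Grey ticks mark the 57 annotated precursors and red stems the 6 with a listed miRNA, of which 4 stand together in the last 1387 bp from Mir541 to Mir410.

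The values are CPM, that is, reads scaled to library size, which the authors normalized with TMM factors. Every value was a whole multiple of what 1 read was worth in its library (within 0.05 of a read), so the reads could be read back. Total reads were 261393 to 463498 in small EVs and 236432 to 279737 in blasts, and the upper limit left by a count of 0 (3 reads) was 6.28 to 10.4 CPM per small EV library against 11.0 to 14.4 CPM per blast library. Intervals given here are at 95% and cover counting error only. The lymphoid miRNAs characteristic of T cells were abundant, all 6 precursors of a list (miR-142a, miR-150, miR-155, miR-146a, miR-342 and miR-181a) being present with a summed level of 74008 to 99467 CPM in small EVs, against 89692 to 111258 CPM in blasts. This sum hides movement both ways, since 4 of its 11 rows were higher and 3 lower in every small EV library. For example, mmu-miR-342-3p had 17892 to 24616 CPM in small EVs, against 2027 to 2642 CPM in blasts, whereas mmu-miR-142a-5p had 24683 to 32467 CPM in small EVs, against 57986 to 68824 CPM in blasts. In bulk libraries such as these, fewer carriers of a miRNA and less of it per carrier cannot be told apart.

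Together the 7 members had 400 CPM in small EVs 1, 367 in small EVs 2 and 264 in small EVs 5, against 11.2 CPM in T cell blasts 1, 25.7 in blasts 2 and 14.4 in blasts 5. Every small EV library was thus above every blast library. These sums rested on 191, 168 and 76 reads in small EVs and on 3, 7 and 3 reads in blasts. Over the group they were 0.0375% of the reads of small EVs (exact binomial interval 0.0341 to 0.0412%) and 0.00164% of those of blasts (0.000874 to 0.00281%). The normalized ratio of small EVs to blasts was 20.5, with a counting interval of 11.9 to 38.8.

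Most of this level was mmu-miR-127-3p, which is also the member that cleaves a message of its own domain. It had 270, 251 and 167 CPM in small EVs 1, 2 and 5, from 292 reads in all. In blasts 1, 2 and 5 it had 3.75, 18.3 and 4.79 CPM, from 1, 5 and 1 reads. It was the only member with more than 3 reads in all blasts together, and its lowest small EV value was far above its highest blast value. The mean was 229 ± 55.1 CPM in small EVs and 8.95 ± 8.14 CPM in blasts (SD, n = 3 each), a normalized ratio of 25.5 (counting interval 12.2 to 64.1) and a log2 difference of 4.80 (standard error 0.56, limma on log2(CPM + 1)). Of its 7 blast reads, 5 were in blasts 2, and without that library the ratio was 56.8 and the log2 difference 5.43. By mean level it stood at place 112 of all listed miRNAs in small EVs and at place 282 in blasts.

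The next in level, mmu-miR-411-5p, comes from near the start of the large group of precursors that ends with miR-410. It had 79.6, 59.0 and 41.7 CPM in small EVs 1, 2 and 5 (38, 27 and 12 reads). Blasts 1, 2 and 5 held 3.75, 0 and 9.57 CPM (1, 0 and 2 reads), below all small EV libraries. The normalized ratio was 15.7, with a wide counting interval of 5.18 to 77.8 because the blasts gave only 3 reads. It was 9.99 without blasts 2 and 34.0 without blasts 5.

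The remaining 5 members, all from the stretch within Mirg, were rare, with at most 13 reads in any library. Of these, mmu-miR-369-3p, whose human counterpart is known to bind the AU-rich element of the TNF message, had 10.5, 15.3 and 24.3 CPM in small EVs 1, 2 and 5, against 3.75, 0 and 0 CPM in blasts 1, 2 and 5. The blast value was a single read, so the ratio of 11.6 had a counting interval of 1.85 to 483. Without blasts 2 it was 7.39. Without blasts 1 no blast read remained, and the level was 2.49 times the floor of 3 reads over the remaining blasts. Next, mmu-miR-409-3p had 27.2, 17.5 and 3.47 CPM in small EVs 1, 2 and 5 and no read in blasts. The value in small EVs 5 was 1 read, within the range that a count of 0 allows in a blast library. Over the group, the level in small EVs was 4.49 times a floor of 3 reads over the blasts (4.01 CPM). Similarly, mmu-miR-410-3p, which closes the cluster, had 6.28, 17.5 and 17.4 CPM in small EVs 1, 2 and 5. It had no read in blasts, and its level in small EVs was 3.26 times the same floor. With 1 library left out, these multiples ran from 2.85 to 5.60 for mmu-miR-409-3p and from 2.07 to 4.35 for mmu-miR-410-3p. They were lowest without blasts 2, where fewer blast reads raise the floor. The multiples leave out the counting error of small EVs. A miRNA without a blast read was listed only by a read in every small EV library. Leaving out a library therefore does not check the direction of these members.

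The last members gave no basis for a fold. The other arm of the miR-409 precursor, mmu-miR-409-5p, had 6.28, 2.18 and 3.47 CPM in small EVs 1, 2 and 5, from 3, 1 and 1 reads, and no read in blasts, so both groups were at or near the floor. Finally, mmu-miR-541-5p had 0, 4.37 and 6.94 CPM in small EVs 1, 2 and 5 and 0, 7.33 and 0 CPM in blasts 1, 2 and 5. It was the member whose groups overlapped, with 4 reads in small EVs and 2 in blasts and a ratio of 1.22 (counting interval 0.175 to 13.5). It was 2.01 without small EVs 1 and 0.80 without small EVs 5, so it had no settled direction.

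**Figure D2:**
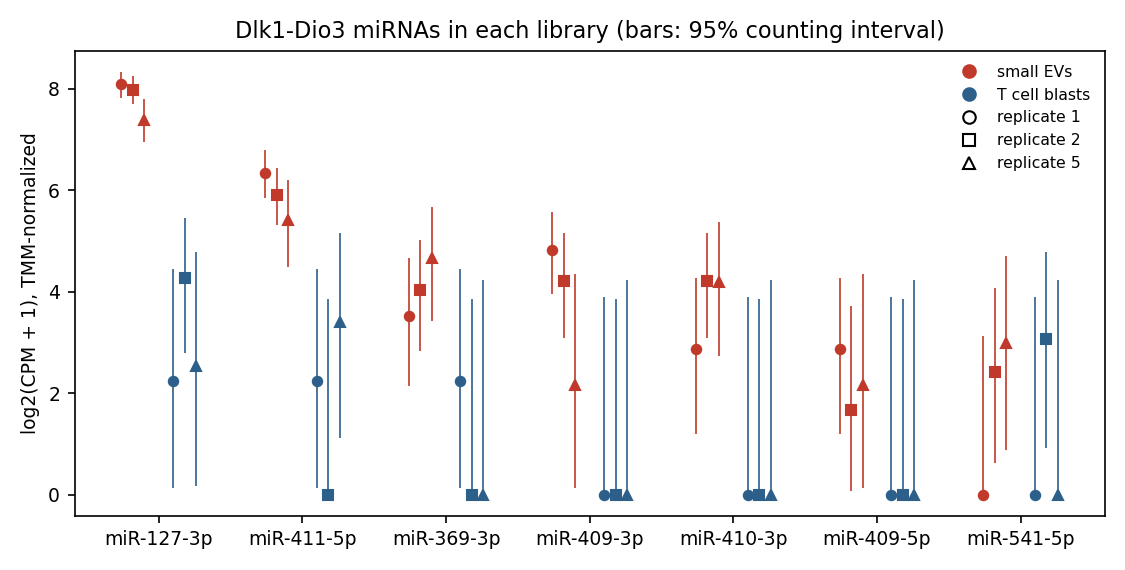
Level of each of the 7 Dlk1-Dio3 miRNAs (x axis) in each library, as log2(CPM + 1) (y axis). Red symbols are small EVs and blue symbols T cell blasts, the shape gives the replicate number, and bars are 95% counting intervals. All small EV values of mmu-miR-127-3p (167 to 270 CPM) and mmu-miR-411-5p (41.7 to 79.6 CPM) lie above all blast values, whereas mmu-miR-541-5p overlaps between the groups.

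Counted over members, 6 of 7 had every small EV library above every blast library, as did 20.4% of all listed miRNAs, and the same 6 were called higher in small EVs by limma at the adjusted p of 0.2 used in the study's methods (Benjamini-Hochberg), as were 21.1% of all. Since this contrast chose the leading members, nothing is read from these counts. The deposited list also bears on them. It holds miRNAs with at least 1 CPM in at least 3 libraries, and because 1 read was worth more than 1 CPM in every library, this means a read in at least 3 libraries, which all listed miRNAs had. Of the 7 members, 3 had no read in blasts (mmu-miR-409-3p, mmu-miR-410-3p and mmu-miR-409-5p), as had 4.88% of all miRNAs. These 3 could be listed only by having a read in every small EV library, so their direction was fixed by the filter. Together with mmu-miR-541-5p, they had a read in exactly 3 libraries, the fewest that the list allows.

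**Figure D3:**
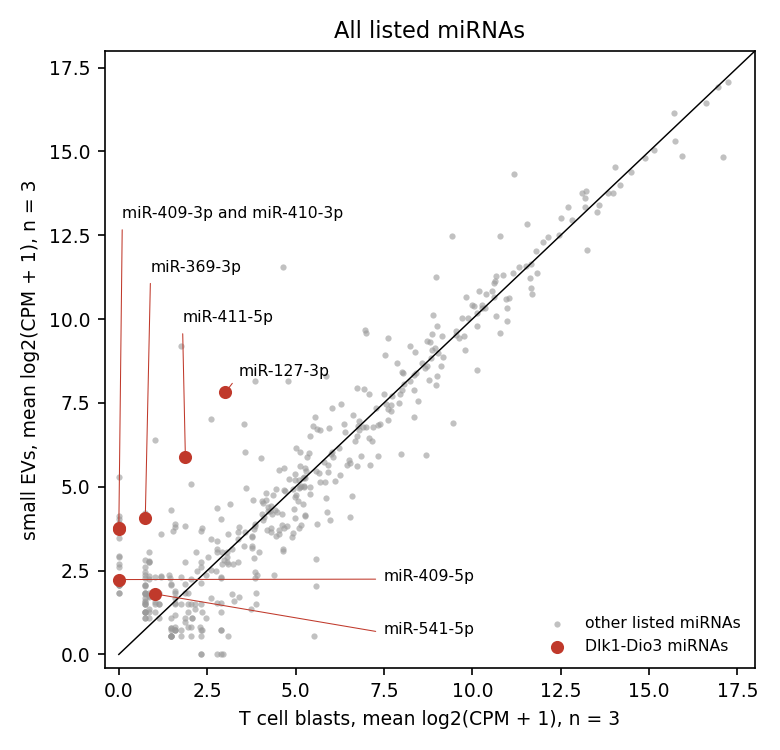
Mean log2(CPM + 1) of each listed miRNA in small EVs (y axis) and in T cell blasts (x axis), n = 3 libraries each, with the 7 Dlk1-Dio3 miRNAs in red and the line of equal levels in black. mmu-miR-127-3p and mmu-miR-411-5p stand well above the line, mmu-miR-409-3p, mmu-miR-410-3p and mmu-miR-409-5p stand at 0 in blasts, and mmu-miR-541-5p lies among the other rare miRNAs.

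Within small EVs, the order of levels was clear only at the top. In each of the 3 small EV libraries mmu-miR-127-3p was above mmu-miR-411-5p, and mmu-miR-411-5p above mmu-miR-369-3p, with no overlap over libraries. Below these, the neighbours mmu-miR-369-3p, mmu-miR-409-3p, mmu-miR-410-3p, mmu-miR-409-5p and mmu-miR-541-5p overlapped. The share of mmu-miR-127-3p in the reads of the 7 members was 67.5% in small EVs 1 (exact binomial interval 60.4 to 74.1%), 68.5% in small EVs 2 (60.8 to 75.4%) and 63.2% in small EVs 5 (51.3 to 73.9%). Its reads outnumbered those of mmu-miR-411-5p by 3.39 in small EVs 1 (2.35 to 5.01), 4.26 in small EVs 2 (2.78 to 6.74) and 4.00 in small EVs 5 (2.09 to 8.27). The intervals overlapped, so a difference in this ratio between small EV libraries was not detectable at this depth. With 3 libraries, an exact paired test could not pass 0.05, and none was run.

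Small EVs 5, the shallowest of the small EV libraries, was the lowest of them in some members and the highest in others. Relative to the mean of small EVs 1 and 2, it held 0.639 times the level of mmu-miR-127-3p, 0.601 times that of mmu-miR-411-5p and 0.155 times that of mmu-miR-409-3p. Conversely, mmu-miR-369-3p was at 1.89 times that mean. For mmu-miR-410-3p the lowest library was small EVs 1, at 6.28 CPM from 3 reads. Its counting interval (1.30 to 18.4 CPM) covers the values of small EVs 2 and 5. For mmu-miR-127-3p the SD over small EV libraries was 2.22 times the SD expected from counting alone, where 45 other miRNAs of like read number had a median of 1.46 times and 14 of them were higher. The same ratio was 1.49 for mmu-miR-411-5p (median of 71 like miRNAs, 1.24), 1.75 for mmu-miR-409-3p (median of 97, 1.05), 1.11 for mmu-miR-369-3p and 1.11 for mmu-miR-410-3p. The spread of the last pair was thus about that of counting, so no library is shown to differ in them.

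Only 1 precursor of the domain had both arms listed. The Mir409 hairpin, at chr12:109743158-109743236, is printed with the 5p arm and then the 3p arm in capitals.
Mir409: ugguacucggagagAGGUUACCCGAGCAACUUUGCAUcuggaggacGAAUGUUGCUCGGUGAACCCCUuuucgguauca
The 3p arm took 81.3% of the arm reads in small EVs 1 (16 reads), 88.9% in small EVs 2 (9 reads) and 50.0% in small EVs 5 (2 reads). Over the group it took 22 of 27 reads, or 81.5% (exact binomial interval 61.9 to 93.7%). Among the 116 precursors with both arms listed, the share of the more abundant arm in small EVs had a median of 94.6%, and was higher than that of Mir409 in 79 and lower in 36. In blasts neither arm of Mir409 had a read, so the arms could not be compared there. For the same reason each arm could be listed only by a read in every small EV library. This fixed the 50.0% in small EVs 5 and limited the share of the 3p arm elsewhere. Nothing is therefore read from the place of Mir409 among the 116 precursors.

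Some lists of miRNAs named after other cell types were, like the Dlk1-Dio3 members, higher in small EVs. Others overlapped between the groups or lay close together. A stromal and endothelial list, with 10 of its 11 precursors and 12 rows (among them miR-143, miR-126a, miR-10a and miR-10b), summed to 7340 to 12224 CPM in small EVs, against 842 to 1157 CPM in blasts, and all 12 rows were higher in every small EV library. A red cell list, with all 4 precursors and 6 rows (miR-451a, miR-144 and miR-486), summed to 1219 to 1863 CPM in small EVs, against 246 to 258 CPM in blasts, also with no overlap in any row. In blasts, 4 of the 6 red cell rows had no read, among them mmu-miR-451a and both arms of miR-144. The same held for 6 of the 12 stromal and endothelial rows, against 4.88% of all miRNAs. Such rows could be listed only by a read in every small EV library, so their direction was fixed by the filter. Of all listed miRNAs, 20.4% had every small EV library above every blast library. A single myeloid row, mmu-miR-223-3p, had 15.3 to 20.9 CPM in small EVs, against 0 to 3.67 CPM in blasts. The other lists were much closer between the groups. A neural list, with 2 of 7 precursors and without miR-124 and miR-137, had 28.4 to 69.4 CPM in small EVs, against 40.3 to 62.2 CPM in blasts. Epithelial miRNAs (6 of 7 precursors) had 441 to 489 CPM in small EVs, against 367 to 378 CPM in blasts. Of their 7 rows, 1 was higher in every small EV library, mmu-miR-141-3p, and 0 were lower in every one. The liver and muscle lists (2 of 3 and 1 of 5) overlapped. The part of other cells in the level of the Dlk1-Dio3 miRNAs was not tested.

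These sums rest on few miRNAs. In small EVs 1, 2 and 5, miR-10a and miR-10b made up 86.7, 84.8 and 82.6% of the stromal and endothelial sum, and miR-486 made up 97.9, 99.1 and 97.4% of the red cell sum. In blasts, miR-10a and miR-10b made up 67.6 to 81.6% of the first sum and miR-486 all of the second. There mmu-miR-10a-5p alone had 536 to 925 CPM. The list names are labels, and whether these miRNAs came from such cells was not tested. The Dlk1-Dio3 members came to 3.27, 3.05 and 3.60% of the stromal and endothelial sum in small EVs 1, 2 and 5, and to 21.9, 19.7 and 21.7% of the red cell sum. In blasts 1, 2 and 5 they came to 0.971, 2.73 and 1.70% of the first and 4.41, 10.4 and 5.56% of the second, from the few reads given above. Without miR-10a and miR-10b, the members came to 24.5, 20.1 and 20.7% of the rest of the stromal and endothelial list in small EVs 1, 2 and 5, and to 5.26, 9.46 and 5.26% in blasts 1, 2 and 5. In small EVs 5 the stromal and endothelial sum was 0.606 times and the red cell sum 0.661 times the mean of small EVs 1 and 2, next to 0.688 times for the Dlk1-Dio3 members and 0.765 times for the lymphoid list.

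**Figure D4:**
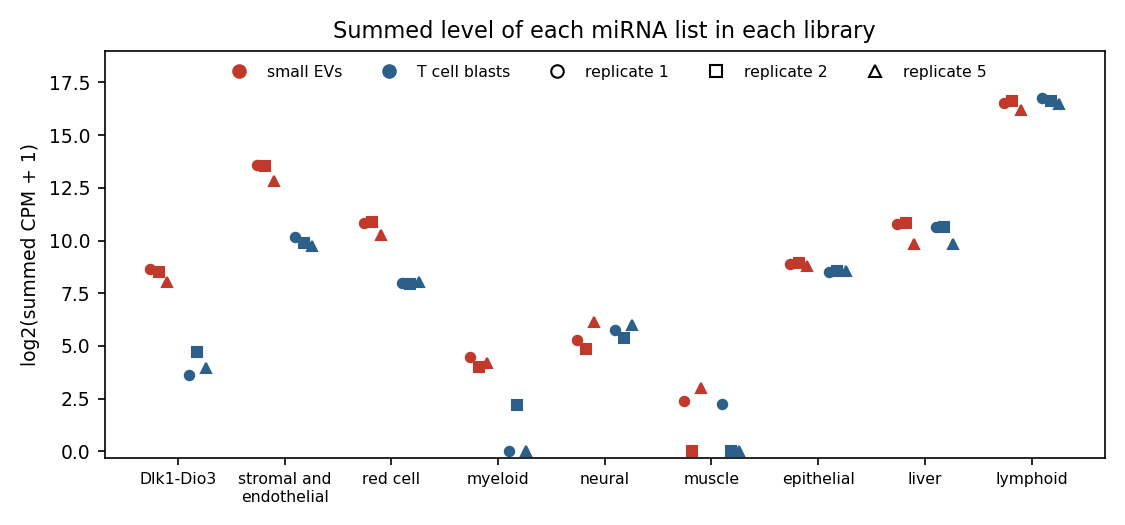
Summed level of the 7 Dlk1-Dio3 miRNAs and of each list of cell type miRNAs in each library, as log2(summed CPM + 1) (y axis), with small EVs in red, T cell blasts in blue and the replicate number as the shape. The Dlk1-Dio3 members (264 to 400 CPM in small EVs, 11.2 to 25.7 CPM in blasts), the stromal and endothelial list, the red cell list and the myeloid row separate the groups by the widest margins, and the lymphoid list overlaps.

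The miRNAs most like each leading member were found by the Euclidean distance of log2(CPM + 1) over the 6 libraries. Closest to mmu-miR-127-3p were mmu-miR-703 (distance 2.43), mmu-miR-212-3p (2.62) and mmu-miR-706 (3.11). Of these, mmu-miR-212-3p, which is cut from the same transcript as miR-132, had 283, 330 and 250 CPM in small EVs 1, 2 and 5 and 26.2, 18.3 and 4.79 CPM in blasts 1, 2 and 5. Closest to mmu-miR-411-5p were mmu-miR-6516-3p (2.62), mmu-miR-5100 (3.20) and mmu-miR-706 (3.70). For mmu-miR-410-3p they were mmu-miR-99a-5p (0.79), mmu-miR-3062-5p (1.61) and mmu-miR-199a-3p (1.65), each without a read in blasts. The values of mmu-miR-199a-3p are uncertain, since mmu-miR-199b-3p has the same mature sequence. Among rare miRNAs such distances are short wherever the blasts hold no read. No other Dlk1-Dio3 miRNA was among the 3 closest to a leading member.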

How the data were processed

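Small RNA was measured in 6 libraries, grouped by the sample titles. According to the methods and the submitters' processing notes, the authors trimmed reads with Cutadapt, discarded reads under 20 bp or left untrimmed, aligned the remainder to miRBase 21 mature mouse sequences (BWA in the notes) and quantified them with RSEM 1.17. The deposited signal is CPM normalized by TMM in edgeR. Reads were recovered by dividing each library by its smallest value above 0 (100% of values whole).

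All listed miRNAs were fitted with limma 3.58.1 (R 4.3.3) on log2(CPM + 1) with a trend and no block. The members, lists and tests were chosen with earlier results of these data known. Named are all members, the 3 miRNAs closest to each leading member, and any listed miRNA that shares a seed. The labels do not say that a number marks a shared culture. Deviations of same-numbered libraries had a Pearson r over 284 miRNAs of 0.15, 0.16 and 0.34 for numbers 1, 2 and 5. Small EVs 1 correlated as much with blasts 2 (0.17), and small EVs 2 with blasts 1 at 0.11. The data thus do not settle the pairs of numbers 1 and 2. The main fit treats the libraries as unpaired. With the replicate number as a block, the standard error of mmu-miR-127-3p was 0.44, against 0.56. It also fell for mmu-miR-411-5p and mmu-miR-541-5p. It rose for mmu-miR-410-3p (0.81, against 0.64), mmu-miR-409-5p (0.81, against 0.60), mmu-miR-369-3p and mmu-miR-409-3p. Alternatives were pseudocounts of 0.5 and 5, a mean of at least 10 CPM, 3 scalings, the replicate block, each library left out, an adjusted p of 0.05, and recovered reads tested in DESeq2 1.42.0 or edgeR 4.0.16. The methods describe the 3 replicates as independent experiments. Fits were tested on simulated data. Recovery was scored only above a mean level that, of the members, mmu-miR-127-3p alone reached, so this test does not cover the rare members. Sequences and precursor positions come from RefSeq (GRCm38.p6), hosts from GENCODE M21 (GRCm38), and the deposited values involve no genome build.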

Additional observations from a re-analysis of the deposited data

How the results depend on the processing

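The summed level of the members in small EVs over T cell blasts, a ratio of means of 20.1, stayed within the spread between libraries in each of its 10 alternatives. That spread (0.69 in log2) comes from the same 6 libraries, so staying within it is a weak check. Since this contrast chose the leading members, the ratio remains a description. The ratio ran from 17.2 to 26.9 with 1 library left out, the widest range. Leaving out the members with 5 or fewer reads in small EVs was added after seeing the data. With 1 library left out, limma called 77 to 103 miRNAs higher and 46 to 67 lower in small EVs, against 95 and 56. Calls of the members are not read as stable, since the choice of members and the list's filter bear on their direction. A mean of at least 10 CPM left 284 miRNAs to test, of which 61 were called higher. It left 2 members, and 2 were called higher. An adjusted p of 0.05 gave 58 higher and 29 lower. With the replicate number as a block, limma called 106 higher and 73 lower. Rescaling to those miRNAs that stay under 5% in all libraries gave 81 higher and 78 lower, and the median log2 difference of all miRNAs moved to -0.14, from 0.02, whereas an equal sum of 1000000 moved it to 0.19. The ratio of mmu-miR-541-5p lay on either side of 1 with 1 library left out (0.79 to 2.01, blasts 2 aside, which held its only blast reads). The call of mmu-miR-409-5p, at 5 reads, was lost in edgeR with the replicate block (log2 difference 3.53), and the cause was not tested. In DESeq2 (2.44, standard error 2.28) this miRNA was given no adjusted p. Its unadjusted p was already above 0.2, so an adjusted one would not have called it. Depth limits every statement on the 5 rare members.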
